A study of Mus musculus with 6 samples.

Results

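Small leucine-rich proteoglycans are secreted matrix proteins built around a curved array of leucine-rich repeats. The 10 genes described here (Dcn, Bgn, Aspn, Fmod, Lum, Prelp, Kera, Omd, Ogn and Podn) were chosen by name as members of that family. All 10 are among the 33276 genes of the count table, and all 10 passed the filter on low counts that left 20248 genes for testing. RNA-seq was done on fibroadipogenic progenitors (FAPs), mesenchymal cells that lie between muscle fibres, from mice with middle cerebral artery occlusion (MCAO), a model of ischaemic stroke. One group is 3 libraries of circulating FAPs from peripheral blood and the other is 3 libraries of FAPs from muscle. Every library in both groups came from MCAO mice, so the occlusion is shared by both groups. The background strain, sex, age, time after occlusion, sorting markers and number of mice per library are not given in the sources used here. The question is how these genes differ between circulating FAPs and FAPs resident in muscle.

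The core proteins of this family bind fibrillar collagen and set the spacing and growth of its fibrils, and several carry a chondroitin, dermatan or keratan sulfate chain. They also bind growth factors such as TGF-beta and, when released, receptors of innate immunity. In muscle the interstitial fibroblasts and FAPs are a main source of decorin, the product of Dcn, which restrains TGF-beta signalling in fibrosis. By protein structure Dcn, Bgn and Aspn belong to class I, Fmod, Lum, Prelp, Kera and Omd to class II, Ogn to class III and Podn to the more distant class V. Many of the genes stand side by side in the genome. In the RefSeq annotation of GRCm38.p6, Dcn, Lum and Kera are consecutive protein-coding genes on chromosome 10, Aspn, Omd and Ogn on chromosome 13, and Prelp and Fmod on chromosome 1.

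Promoter windows of 4 members are shown because their genes had the contrasts described below. Prelp and Fmod are neighbours on 1 chromosome with fold changes of opposite sign, and Bgn and Podn had negative fold changes with groups that did not overlap. RefSeq gave a window for 8 of the 10 members. Each sequence is the 250 bases before a RefSeq start in GRCm38.p6, read 5′ to 3′ on the gene's strand. The Fmod window lies at chr1:134037004-134037253 (+ strand), the Prelp window at chr1:133921402-133921651 (- strand), the Bgn window at chrX:73483351-73483600 (+ strand) and the Podn window at chr4:108031955-108032204 (- strand). Podn has 2 such windows, and the one with the higher GC content is shown. Capitals mark a GC box (GGGCGG) or a CCAAT box on either strand.
Fmod: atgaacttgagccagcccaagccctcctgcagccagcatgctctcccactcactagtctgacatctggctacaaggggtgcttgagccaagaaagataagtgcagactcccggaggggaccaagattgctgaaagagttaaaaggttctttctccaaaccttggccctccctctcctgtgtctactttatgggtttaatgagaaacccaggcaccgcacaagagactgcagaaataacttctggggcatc
Prelp: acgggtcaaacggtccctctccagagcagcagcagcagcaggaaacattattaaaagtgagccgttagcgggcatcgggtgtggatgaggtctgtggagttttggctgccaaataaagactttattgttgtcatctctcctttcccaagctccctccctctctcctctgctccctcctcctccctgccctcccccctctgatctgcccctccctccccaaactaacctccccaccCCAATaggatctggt
Bgn: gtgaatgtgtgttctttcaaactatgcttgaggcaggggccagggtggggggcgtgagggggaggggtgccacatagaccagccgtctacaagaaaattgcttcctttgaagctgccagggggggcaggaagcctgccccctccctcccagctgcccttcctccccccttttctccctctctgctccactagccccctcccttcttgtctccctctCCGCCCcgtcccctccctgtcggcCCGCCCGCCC
Podn: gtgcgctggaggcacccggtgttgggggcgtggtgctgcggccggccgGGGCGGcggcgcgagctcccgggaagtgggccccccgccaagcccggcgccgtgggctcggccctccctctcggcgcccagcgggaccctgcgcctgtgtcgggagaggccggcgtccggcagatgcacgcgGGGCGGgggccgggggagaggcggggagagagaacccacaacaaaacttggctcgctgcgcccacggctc
Both strands were searched for the TATA box letters TATAAA, for the box CCAAT, for the GC box GGGCGG and for TGANTCA, the letters of an AP-1 site. In the windows of the members no match overlapped one of a different motif, while 2 pairs of matches of the same motif overlapped (in Bgn and in Ogn). The Fmod window held none of these 4. The Prelp window held CCAAT once, starting 15 bases before the start of transcription. In the Bgn window GGGCGG was found 3 times, starting 34, 10 and 6 bases before the start, and in the Podn window it was found 2 times, starting 202 and 70 bases before it. The comparison set was 32851 promoter windows of the same length, with 1 chromosome left out. Of these windows 32.7% held the GC box, 33.9% the CCAAT box, 12.4% the TATA box letters and 6.75% the AP-1 letters. Over all 9 windows of the members, the GC box was in 2 (1 of the Podn windows and that of Bgn), the CCAAT box in 3 (Prelp, Kera and Aspn), the TATA box letters in 2 (Aspn and Ogn) and the AP-1 letters in none. These are matches of letters and say nothing of binding. GC content ran from 30.0% for Aspn to 78.0% for the Podn window shown, against a median of 52.4% over the 32851 windows.

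The circulating libraries held 5522193 to 13813329 counts each and the muscle libraries 17532558 to 23424039. 18S ribosomal RNA, which stands under 2 symbols, took 42.9% to 60.1% of the circulating and 27.8% to 32.3% of the muscle counts. Unless another scale is named, levels are in counts per 1000000 (CPM), with library sizes scaled by TMM, and fold changes are log2, circulating minus muscle, with their standard error (SE). Over all genes, edgeR's quasi-likelihood test with Benjamini-Hochberg adjustment called 21 genes lower (0.104% of those tested) and 1 higher (0.00494%). That total of 22 became 65 without circulating replicate 1, 1 without circulating replicate 2 or 3 or without muscle replicate 1 or 2, and 0 without muscle replicate 3. Scaling matters for direction, since the median log2 fold change was 0.15 over all tested genes and -0.65 over the 4736 genes of at least 20 CPM. Abundant-gene scaling used RLE size factors in place of TMM, taken only from genes of at least 20 CPM before scaling. Under it the all-gene median shifted up by 0.78, and 1 gene was called lower (0.00494%) and 2 higher (0.00988%), none of them one of the 10. Markers of the labelled cell type were present in every library. The summed level of 10 FAP markers was 18610 to 20394 CPM in circulating and 37011 to 46347 CPM in muscle libraries, but most of it was Gsn (14589 ± 1501 and 33311 ± 3785 CPM, SD, n = 3). In edgeR Gsn, Col15a1 and Smoc2 were lower in circulating FAPs (each adjusted p = 0.0341). Pdgfra did not pass but was lower without overlap, at 202 ± 16.5 against 610 ± 210 CPM (SD, n = 3). Its fold change was -1.60 (adjusted p = 0.114 in edgeR and adjusted p = 0.0260 in DESeq2). Dpp4 was higher without overlap (2.26, adjusted p = 0.127 in edgeR and adjusted p = 0.00900 in DESeq2). Pi16, whose groups overlapped, had a fold change of 1.47 (adjusted p = 0.180 in edgeR). The median of the 10 was -0.39, or 0.38 under abundant-gene scaling, where none of Gsn, Col15a1 and Smoc2 passed. The summed level of 10 leukocyte markers was 95.3 to 126 CPM in circulating and 19.6 to 21.5 CPM in muscle libraries. The highest marker differed by library: S100a9 (69.8 CPM), Csf1r (32.3 CPM) and S100a8 (61.4 CPM) in circulating replicates 1, 2 and 3. Ptprc was at 8.98, 12.5 and 13.5 CPM in circulating and 7.89, 6.70 and 4.64 CPM in muscle replicates 1, 2 and 3. Of the 10 markers 1 had a negative fold change. The part of leukocyte transcripts in the results below was not tested. In bulk samples fewer cells of a type and less RNA per cell cannot be told apart.

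The summed reads of the family were lower in circulating than in muscle FAPs, while Fmod had a positive fold change. Together the 10 genes took 1.19% to 1.30% of the counts other than 18S in the circulating libraries and 1.65% to 1.98% in the muscle libraries. On the CPM scale their summed level was 7468, 4909 and 5677 in circulating replicates 1, 2 and 3, and 14744, 10601 and 15335 in muscle replicates 1, 2 and 3. Every circulating library thus lay below every muscle library. The log2 fold change was negative for 9 of 10 members, where 45.5% of all tested genes were negative, and its median over the members was -1.41. Under abundant-gene scaling it was negative for 7 of 10, where 24.2% of all genes were, and the median was -0.61. Over genes of at least 20 CPM the median was -0.65, or 0.14 under abundant-gene scaling. No member passed the threshold over all genes in edgeR. At an unadjusted p under 0.05, 6 members were lower (Dcn, Bgn, Lum, Prelp, Omd and Podn) and 1 was higher (Fmod), where 9.64% of all genes were lower and 9.71% higher by that mark. DESeq2 called Bgn, Lum, Prelp and Podn lower and none higher. Of the 15217 genes to which it gave an adjusted p, it called 7.08% lower and 1.34% higher.

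The circulating and muscle libraries did not overlap for 7 members, all lower in circulating FAPs. Of all tested genes 11.4% were likewise lower without overlap and 16.2% higher. Genes this abundant were more often lower, so of the 8 members with a mean of at least 50 CPM, 6 were lower without overlap, where 35.6% of all genes at that level were and 1.49% were higher without overlap. Under abundant-gene scaling 5 members were lower without overlap (Dcn, Bgn, Lum, Prelp and Podn) and Fmod was higher without overlap. The shares over all tested genes were then 3.82% lower and 32.7% higher. They are no fair background for genes this abundant. Under this scaling the median fold change was 0.93 over all tested genes but 0.14 over those of at least 20 CPM. The shares among genes of at least 50 CPM were not computed under it, so these counts have no background at the members' level.

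**Figure D1:**
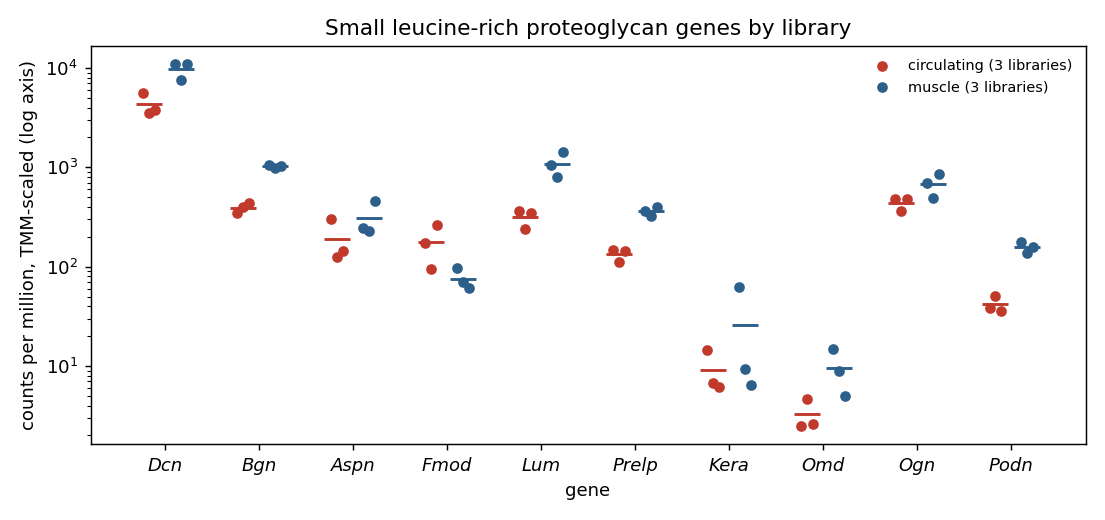
Level of each of the 10 genes in each library, as TMM-scaled CPM on a log axis. Points are libraries, red for circulating and blue for muscle, and bars are group means. The red points lie below the blue ones for Dcn, Bgn, Lum, Prelp, Omd, Ogn and Podn, and Fmod has its 2 highest points in circulating libraries.

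In class I, Dcn was the most abundant member by far. Dcn encodes decorin, which binds type I collagen and sequesters TGF-beta. Its level was 5602, 3512 and 3815 CPM in circulating replicates 1, 2 and 3, and 10968, 7545 and 10936 CPM in muscle replicates 1, 2 and 3. No circulating library reached the lowest muscle library, and the mean was 2.28-fold lower. Its log2 fold change was -1.19 ± 0.25 (SE, n = 3 per group; adjusted p = 0.0962 in edgeR). It was -0.40 ± 0.15 under abundant-gene scaling (adjusted p = 0.109 in edgeR). Without circulating replicate 1, the highest of the circulating libraries, it was -1.49 and passed (adjusted p = 0.0283 in edgeR).

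Bgn encodes biglycan, a close relative of decorin that carries chondroitin or dermatan sulfate chains and, in soluble form, can engage Toll-like receptors. Its level was 343, 398 and 440 CPM in circulating replicates 1, 2 and 3, and 1068, 996 and 1032 CPM in muscle replicates 1, 2 and 3. Both groups were tight and lay well apart, at 394 ± 48.8 and 1032 ± 36.0 CPM (SD, n = 3). Its fold change on the log2 scale was -1.39 ± 0.27 (adjusted p = 0.0909 in edgeR and adjusted p = 0.0370 in DESeq2), and it was -0.58 ± 0.27 under abundant-gene scaling.

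Aspn encodes asporin, which has a run of aspartates in place of the chain attachment sites of its relatives and which also binds collagen and TGF-beta. Its level was 303, 124 and 144 CPM in circulating replicates 1, 2 and 3, and 247, 227 and 458 CPM in muscle replicates 1, 2 and 3. The groups overlapped, since circulating replicate 1 lay above 2 muscle libraries. For Aspn the log2 fold change of -0.71 ± 0.46 did not pass (adjusted p = 0.398 in edgeR), its sign turned under abundant-gene scaling (0.05), and it was -1.28 without circulating replicate 1 and -0.37 without muscle replicate 3.

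In class II, some of whose members can carry keratan sulfate, Lum had the lowest adjusted p of the family in edgeR with TMM scaling. Podn had the lowest in DESeq2. Lum encodes lumican, a regulator of collagen fibril diameter. Its level was 360, 242 and 349 CPM in circulating replicates 1, 2 and 3, and 1054, 794 and 1421 CPM in muscle replicates 1, 2 and 3. The lowest muscle library was above the highest circulating one, and the mean was 3.44-fold lower in circulating FAPs. For Lum the log2 fold change was -1.78 ± 0.33 (adjusted p = 0.0838 in edgeR and adjusted p = 0.0123 in DESeq2). Under abundant-gene scaling it was -0.98 ± 0.27 (adjusted p = 0.0744 in edgeR).

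Prelp encodes a leucine-rich protein with an arginine- and proline-rich amino end that binds heparan sulfate. Its level was 147, 111 and 143 CPM in circulating replicates 1, 2 and 3, and 363, 322 and 401 CPM in muscle replicates 1, 2 and 3. The groups lay apart, at 133 ± 19.4 and 362 ± 39.5 CPM (SD, n = 3). Prelp had a log2 fold change of -1.44 ± 0.34 (adjusted p = 0.129 in edgeR and adjusted p = 0.0308 in DESeq2). In the annotation at hand 9.68% of the exon bases of Prelp are shared with Gm15851 on the other strand, and whether reads were counted by strand is not given in the sources used here.

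Fmod encodes fibromodulin, which steers collagen crosslinking and is prominent in tendon. It was the 1 member with a positive fold change. Its level was 174, 94.5 and 263 CPM in circulating replicates 1, 2 and 3, and 96.6, 70.6 and 60.5 CPM in muscle replicates 1, 2 and 3. Circulating replicates 1 and 3 lay above all muscle libraries, and circulating replicate 2 lay between muscle replicates 1 and 2. Fmod had a log2 fold change of 1.22 ± 0.48 (adjusted p = 0.217 in edgeR and adjusted p = 0.232 in DESeq2). It was 1.996 ± 0.45 under abundant-gene scaling, where the groups did not overlap (adjusted p = 0.0744 in edgeR), and 0.70 without circulating replicate 3, the highest library. The summed level of 8 tendon cell markers was 353 to 437 CPM in circulating and 259 to 332 CPM in muscle libraries, without overlap. Most of that sum was Thbs4 and Comp, each of which overlapped between the groups. Of these 8 markers 3 were higher in circulating libraries without overlap (Chodl, Mkx and Col22a1) and 1 was lower (Tnmd). Of all tested genes 16.2% were higher and 11.4% lower without overlap. The markers' median fold change was 0.43, and 3 had a negative one. DESeq2 called 2 higher (25.0%, against 1.34% of the genes it gave an adjusted p) and none lower. Chodl and Mkx had their highest levels, 46.3 and 31.7 CPM, in circulating replicate 3, whereas Tnmd had its lowest there, 4.17 CPM. The part of tendon transcripts in the Fmod level was not tested.

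Kera encodes keratocan, best known from the cornea. Its level was 14.5, 6.79 and 6.15 CPM in circulating replicates 1, 2 and 3, and 62.6, 9.34 and 6.41 CPM in muscle replicates 1, 2 and 3. Muscle replicate 1 alone stood far above the other 5 libraries, which overlapped. That library had 1048 Kera reads, against 184 and 131 in muscle replicates 2 and 3. The log2 fold change of -1.51 ± 0.93 (adjusted p = 0.375 in edgeR) became 0.17 without muscle replicate 1 (adjusted p = 0.915 in edgeR). The summed tendon markers were at 259 CPM in muscle replicate 1, their lowest level in any library, and their part in the Kera level was not tested.

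Omd encodes osteomodulin, an acidic member first known from bone. It was the least abundant member, with 34, 35 and 24 reads in circulating replicates 1, 2 and 3 and 250, 175 and 103 in muscle replicates 1, 2 and 3. Its level was 2.48, 4.66 and 2.63 CPM in circulating and 14.9, 8.88 and 5.04 CPM in muscle libraries. The groups lay apart by a narrow margin, between circulating replicate 2 and muscle replicate 3, and they overlapped under abundant-gene scaling. The log2 fold change was -1.56 ± 0.66 (adjusted p = 0.236 in edgeR). Of 9 chondrocyte or osteoblast markers, summed at 16.8 to 22.6 CPM in circulating and 55.6 to 109 CPM in muscle libraries, Sox9 held most in muscle, at 87.6, 31.0 and 98.7 CPM in replicates 1, 2 and 3. Other markers of that list lay the other way: Matn3, Ibsp and Sp7 were higher in circulating libraries without overlap, 4 of the 8 tested had a negative fold change, and the median was 0.17. The osteocalcin gene Bglap did not pass the filter on low counts, with 0, 4 and 2 reads in circulating replicates 1, 2 and 3 and 0 in each muscle library. The part of such cells in the Omd level was not tested.

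Ogn, the class III member, encodes osteoglycin, also named mimecan. Its level was 483, 366 and 479 CPM in circulating replicates 1, 2 and 3, and 693, 493 and 860 CPM in muscle replicates 1, 2 and 3. Circulating replicate 1 and muscle replicate 2 nearly met, at 483 and 493 CPM. For Ogn the log2 fold change of -0.62 ± 0.32 did not pass (adjusted p = 0.303 in edgeR), and its sign turned under abundant-gene scaling (0.19 ± 0.26) and also under upper quartile scaling (0.08). Aspn, Omd and Ogn lie within the span of Cenpp, which is on the other strand. Their exons share almost nothing with it, 7 bases of Aspn and none of Omd or Ogn.

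Podn, the class V member, encodes podocan, a collagen-binding protein described in smooth muscle and kidney. It had the most negative fold change of the family. Its level was 38.7, 51.1 and 35.8 CPM in circulating replicates 1, 2 and 3, and 178, 136 and 157 CPM in muscle replicates 1, 2 and 3. The groups lay far apart, and the mean was 3.75-fold lower in circulating FAPs. Podn had a log2 fold change of -1.91 ± 0.43 (adjusted p = 0.125 in edgeR and adjusted p = 0.00401 in DESeq2), and it stayed negative under abundant-gene scaling (-1.08 ± 0.45, adjusted p = 0.128 in edgeR).

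**Figure D2:**
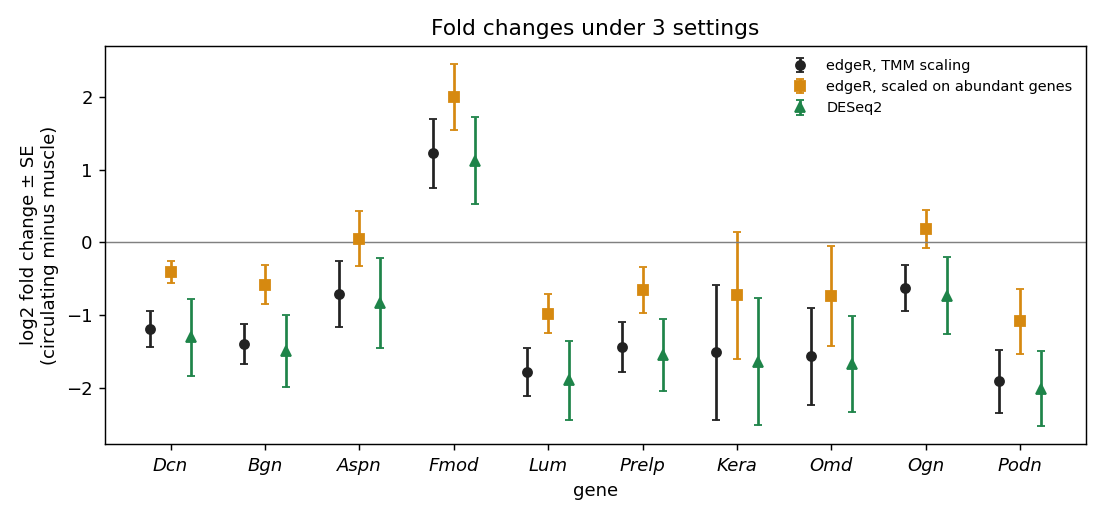
Log2 fold change, circulating minus muscle, of each of the 10 genes with its standard error under edgeR with TMM scaling, edgeR with abundant-gene scaling and DESeq2. Fmod lies above 0 under all 3, from 1.12 to 1.996, Aspn and Ogn change sign under abundant-gene scaling, and the other 7 lie below 0 under all 3.

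The make-up of the family can be read without any scaling between libraries, as shares of its own reads. Dcn held 75.0%, 71.5% and 67.2% of the family's counts in circulating replicates 1, 2 and 3, and 74.4%, 71.2% and 71.3% in muscle replicates 1, 2 and 3. The groups overlapped in this share. Fmod held 2.96% ± 1.46 of the family in circulating and 0.572% ± 0.154 in muscle FAPs (SD, n = 3), and Ogn held 7.45% ± 0.984 and 4.99% ± 0.541. Lum held 5.30% ± 0.734 and 7.97% ± 1.13. For these 3 genes the groups did not overlap, with Fmod and Ogn higher and Lum lower in circulating FAPs. The other 7 overlapped. How often such shares lie apart among other genes was not computed, so these counts have no background beside them.

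With Dcn left out of the total, an alternative chosen after seeing the data, Prelp joined Ogn, Lum and Fmod as a gene whose groups did not overlap. Among the reads of the other 9 genes Ogn held 25.9%, 26.2% and 25.7% in circulating replicates 1, 2 and 3, and 18.3%, 16.1% and 19.5% in muscle replicates 1, 2 and 3. The 3 circulating libraries were nearly identical in this share and stood above all muscle libraries. Lum held 19.3%, 17.3% and 18.7% in circulating and 27.9%, 26.0% and 32.3% in muscle replicates 1, 2 and 3. Prelp held 7.82% ± 0.152 in circulating and 9.75% ± 0.723 in muscle FAPs, again without overlap. Fmod held 9.32%, 6.76% and 14.1% in circulating and 2.56%, 2.31% and 1.38% in muscle replicates 1, 2 and 3. Bgn, Aspn, Kera, Omd and Podn overlapped between the groups. For these shares too, no background over other genes was computed.

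The shift can also be read as ratios of pairs of genes, and these pairs were chosen after their values were seen. Ogn with Lum and Fmod with Prelp join genes whose shares lay apart, so their separation is no further support. Ratios were also taken for Ogn with Prelp, whose groups lay apart, and for Bgn with Dcn and Omd with Ogn, whose groups overlapped. There were 1.34, 1.51 and 1.37 reads of Ogn per read of Lum in circulating replicates 1, 2 and 3, and 0.657, 0.620 and 0.605 in muscle replicates 1, 2 and 3. Ogn outnumbered Lum in every circulating library and Lum outnumbered Ogn in every muscle library. For the genomic neighbours Fmod and Prelp there were 1.19, 0.850 and 1.85 reads of Fmod per read of Prelp in circulating replicates 1, 2 and 3. The same ratio was 0.266, 0.219 and 0.151 in muscle replicates 1, 2 and 3, so the groups lay far apart. Aspn and Ogn, which lie on either side of Omd, showed no such shift. Reads of Aspn per read of Ogn were 0.627, 0.339 and 0.300 in circulating and 0.356, 0.460 and 0.532 in muscle replicates 1, 2 and 3. Such ratios show unequal change of the 2 genes and not which of them changed.

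**Figure D3:**
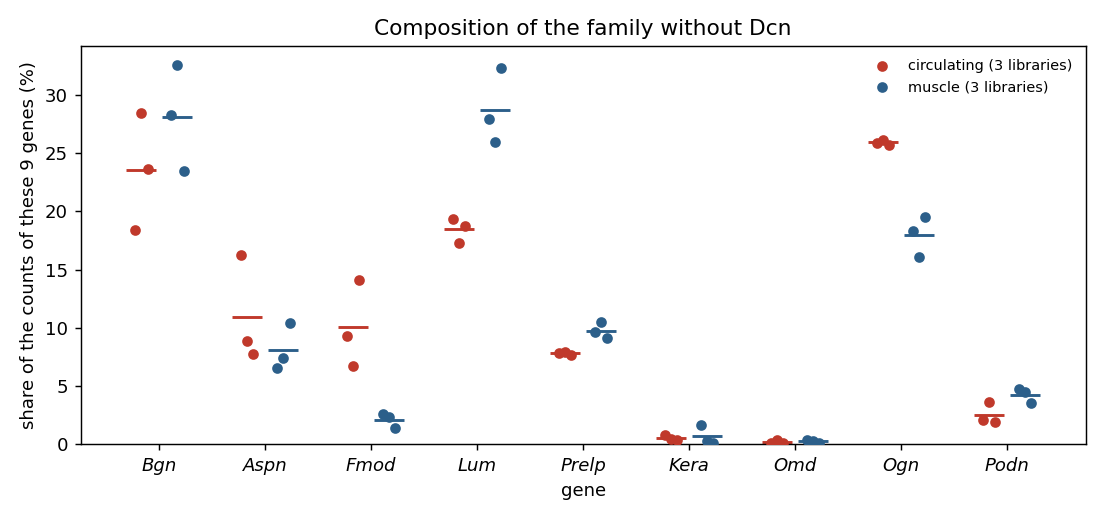
Share of each gene, in percent, of the counts of the 9 genes other than Dcn, by library. Points are libraries, red for circulating and blue for muscle, and bars are group means. Ogn (25.7% to 26.2% in circulating libraries) and Fmod lie higher in circulating libraries, Lum and Prelp lie lower, and the other 5 overlap.

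To compare genes with each other, reads were divided by exon length and given per kilobase and per 1000000 reads other than 18S. On this scale Dcn stood first, at 1510 ± 140 in circulating and 2273 ± 228 in muscle FAPs (SD, n = 3), and ranked 27 to 40 among 30430 genes in circulating and 9 to 17 in muscle libraries. In circulating FAPs Ogn followed at 358 ± 38.8, then Lum at 267 ± 35.1, Aspn at 161 ± 54.5, Bgn at 137 ± 34.0, Fmod at 111 ± 53.6 and Prelp at 76.6 ± 7.40. Podn at 20.9 ± 7.05, Kera at 8.03 ± 2.73 and Omd at 3.15 ± 1.64 were the lowest. In muscle FAPs the order after Dcn was Lum at 600 ± 130, Ogn at 358 ± 67.9, Bgn at 232 ± 19.4, Aspn at 178 ± 63.4, Prelp at 136 ± 7.79, Podn at 50.03 ± 2.99, Fmod at 31.4 ± 7.003, Kera at 15.0 ± 17.4 and Omd at 5.83 ± 2.80. Neighbours in this order whose libraries overlapped were Aspn with Bgn, Bgn with Fmod and Fmod with Prelp in circulating FAPs, and Bgn with Aspn, Aspn with Prelp, Fmod with Kera and Kera with Omd in muscle FAPs. The mean of Ogn was 358 in both groups on this scale. Fmod stood above Prelp and Podn in circulating and below both in muscle FAPs by group means. The exon length matters for this order, since with the longest coding transcript in place of all exons the circulating level of Dcn was 5014, that of Bgn 345 and that of Podn 28.2, which moved Bgn above Lum and left Dcn first. Among all genes the rank of Dcn then became 6 to 11 of 19294 in circulating and 2 to 3 in muscle libraries.

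Reads also fall on genes that are silent outside sensory tissue, and more so in the circulating libraries. The median level per length over 376 vomeronasal, taste and trace amine receptor genes was 0.835, 1.29 and 0.913 in circulating replicates 1, 2 and 3, and 0.339, 0.445 and 0.280 in muscle replicates 1, 2 and 3. All 10 members lay above that background in all 6 libraries. Dcn was 1128 to 1998 times background in circulating and 4518 to 8635 times in muscle libraries. Omd was nearest to background, at 2.30 to 3.88 times in circulating and 10.3 to 24.9 times in muscle libraries. Kera was at 5.58 to 13.3 times in circulating and 12.9 to 103 times in muscle libraries. The divisor itself was higher in circulating libraries, which moves every gene lower there. Relative to it 8 members were lower without overlap, where 29.3% of all tested genes with a length were lower and 2.76% higher. Of the 8 members of at least 50 CPM 7 were lower without overlap, where 70.6% of all genes at that level were, so this count is no result about the members. Kera overlapped, and so did Fmod, at 53.6 to 187 times in circulating and 74.7 to 110 times in muscle libraries.

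**Figure D4:**
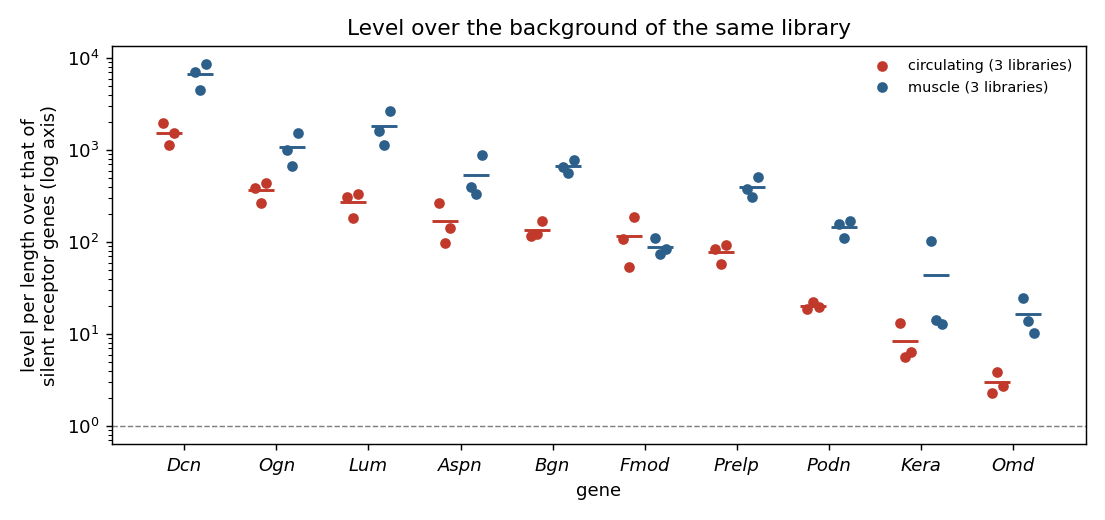
Level per length of each gene divided by the median level per length of silent receptor genes of the same library, on a log axis. Points are libraries, red for circulating and blue for muscle, bars are group means and the dashed line at 1 is the background. All points lie above 1, with Omd in circulating libraries nearest to it at 2.30 to 3.88.

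None of 7 lists of related genes had a member past the threshold over all genes in edgeR. The counts below stand beside shares over all genes. Of all tested genes 45.5% were negative, and 9.64% were lower and 9.71% higher at an unadjusted p under 0.05. Of the 15217 genes given an adjusted p by DESeq2, 7.08% were lower and 1.34% higher. List percentages are of all tested genes of the list, also those without such a p. Of 13 collagens that carry or accompany these proteoglycans, the log2 fold change was negative in 12, and the list's median was -0.95, turning to -0.20 under abundant-gene scaling. At an unadjusted p under 0.05, 9 were lower (69.2%, against 9.64% of all genes), and DESeq2 called 4 lower (30.8%, against 7.08%). Abundant genes were more often lower, as given above for genes of at least 50 CPM. Col3a1, a fibrillar collagen and the most abundant of the list, stood at 9644 ± 500 CPM in muscle against 3435 ± 1016 CPM in circulating FAPs (SD, n = 3) and had a log2 fold change of -1.49 ± 0.24 (adjusted p = 0.0606 in edgeR). The count of collagens called lower by edgeR became 5 without circulating replicate 1.

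The enzymes that build the sugar chains had no call in edgeR. Of 21 tested genes of chondroitin and dermatan sulfate synthesis 13 had a negative fold change, median -0.40 (0.40 under abundant-gene scaling), 1 was lower at an unadjusted p under 0.05 and DESeq2 called 1 lower (Chst11, a chondroitin sulfotransferase named after its value was seen). Each is 4.76% of the list, below the shares of 9.64% and 7.08% given above. Chpf, a chondroitin polymerising factor and the most abundant of that list, was at 68.2 ± 29.3 and 94.8 ± 53.6 CPM (SD, n = 3). Of 9 tested genes of keratan sulfate synthesis and sulfate supply 8 were negative, median -0.89 (-0.05 under abundant-gene scaling). At an unadjusted p under 0.05, 1 was lower and 1 higher, and DESeq2 called none. B4galt1, a galactosyltransferase, led this list by abundance at 124 ± 27.5 and 246 ± 69.5 CPM.

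Among 9 tested proteases known to process or cleave such matrix, 8 had a negative fold change, median -0.95 (-0.16 under abundant-gene scaling), 4 were lower at an unadjusted p under 0.05 and DESeq2 called 2 lower. Adamts1, a metalloproteinase that cleaves proteoglycans, stood at 825 ± 183 CPM in muscle against 244 ± 61.2 CPM in circulating FAPs (-1.76 ± 0.34, adjusted p = 0.0884 in edgeR). Receptors and ligands bound by these proteins were divided. Of 21, 13 were negative, median -0.26 (0.56 under abundant-gene scaling), 5 were lower (23.8%, against 9.64% of all genes) and 1 higher (4.76%, against 9.71%) at an unadjusted p under 0.05, and DESeq2 called 4 lower (19.0%, against 7.08%) and 1 higher. The 1 called higher was Cd14, at 3.36, 42.7 and 43.6 CPM in circulating and 2.75, 2.18 and 4.01 CPM in muscle replicates 1, 2 and 3. The most abundant of the list, the scavenger receptor Lrp1, was at 251 ± 86.6 and 265 ± 17.1 CPM.

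The 7 tested genes of other small leucine-rich proteoglycans and related proteins stood at a median of -0.35 (0.45 under abundant-gene scaling), with 1 lower at an unadjusted p under 0.05 and 1 lower in DESeq2. Ecm2, the chromosome 13 neighbour of Aspn and the most abundant of them, was at 67.0 ± 48.9 and 92.5 ± 22.5 CPM. Of 18 other proteoglycan core proteins 13 were negative, median -0.42 (0.36 under abundant-gene scaling), 4 were lower and 2 higher at an unadjusted p under 0.05, and DESeq2 called 2 lower and 1 higher. The 1 called higher was Srgn, at 134, 12.9 and 2.64 CPM in circulating and 0.597, 1.32 and 1.76 CPM in muscle replicates 1, 2 and 3. The part of leukocyte transcripts in the levels of Srgn and Cd14 was not tested. Hspg2, which encodes the basement membrane proteoglycan perlecan, was at 305 ± 96.8 and 405 ± 120 CPM. Beside these medians that of the 10 small leucine-rich proteoglycans was -1.41. That of all tested genes was 0.15, and that of genes of at least 20 CPM was -0.65.

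Among 2016 other genes of at least 50 CPM, the profiles over the 6 libraries most like that of Dcn, each gene centred on its own mean, were those of Dynll1, Tnfaip6 and Sash1. They differed from Dcn by a root mean square of 0.08, 0.12 and 0.12 on the log2 scale. Most like Lum were Adamts1, Tshz2 and Tra2b, at 0.13, 0.13 and 0.14. Within the family Prelp was nearest to both, at 0.22 from Dcn (place 38 in the order) and 0.23 from Lum (place 22). Fmod was far from both, at 1.26 (place 1935) and 1.51 (place 1967). These likenesses rest on 6 libraries in 2 groups, and say nothing of shared function or control.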

How the data were processed

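The deposited values are raw read counts, 1 row per gene symbol and 1 column for every sample (3 circulating, 3 muscle), in a single table. Trim Galore, STAR and featureCounts with the mouse build GRCm39 are named per the submitters' processing notes, without versions, options or annotation. Per the labels, the RNA was extracted in RLT plus buffer, and a TruePrep kit, which tags DNA with a transposase, gave the libraries.

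The test was edgeR's quasi-likelihood F test (version 4.0.16, R version 4.3.3; robust fit, TMM scaling, filterByExpr, adjusted p under 0.05 over all 20248 genes, no pairing term). Each SE is |log2 fold change| over the root of its F value. The common dispersion was 0.381. On counts simulated from these samples over 19212 genes, 0 of 50 genes changed 2-fold were found, 2 of 50 changed 4-fold, 21 of 50 changed 8-fold and 37 of 50 changed 16-fold. The 63 calls included 3 false ones. Replicates differed far beyond sampling noise (chi-square per degree of freedom 46.2 to 97.3). As the labels name no separate mice, the spread behind the p-values may be technical. DESeq2 1.42.0 on the same genes was an alternative; others were scalings, no filter, 18S left out, a replicate block and leaving out each library.

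Exon lengths came from GENCODE M21 (GRCm38), matched by symbol for 91.4% of symbols, and promoters from RefSeq GRCm38.p6; no other coordinates were used. Members and lists were chosen with earlier results of these data known. Named genes are all 10 members, genes of the pathway lists past the threshold (there were none), the most abundant gene of each pathway list and the 3 genes most like the 2 members highest per length; any other gene was picked with its values in view. Marker lists not printed in the report had summed levels that overlapped between the groups (platelet, red cell, endothelial, muscle fibre, Schwann) or were lower in circulating libraries (satellite cell 13.3 to 27.45 against 27.48 to 61.8 CPM, pericyte 49.9 to 64.0 against 88.1 to 151 CPM).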

Additional observations from a re-analysis of the deposited data

How the results depend on the processing

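The count of 22 genes over all genes was 43 with RLE size factors, 2 with upper quartile scaling, 3 under abundant-gene scaling, 160 without a filter on low counts and 1282 with DESeq2. It ran from 0 to 65 when each library was left out. The 10 genes of the family had 0 calls, 3 without a filter (Dcn, Bgn and Lum), 4 with DESeq2 and 0 to 1 when each library was left out (Dcn without circulating replicate 1). The collagens, with 0 calls, had 2 with RLE, TMMwsp or 18S left out, 1 with library size, 4 without a filter or with DESeq2 and 0 to 5 over the libraries left out. Without a filter 1 gene was called among chondroitin enzymes, proteases and other core proteins. DESeq2 called 1 among other leucine-rich genes, 1 among chondroitin enzymes, 5 among receptors and ligands, 2 among proteases and 3 among other core proteins. Receptors and ligands had 0 to 1 over the libraries left out.

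The sign turned for Ogn with upper quartile scaling (0.0793) and abundant-gene scaling (0.185), for Aspn under abundant-gene scaling (0.0538) and for Kera without muscle replicate 1 (0.17, in a range of -2.08 to 0.17 over the libraries left out, lowest without circulating replicate 1). The cause was not tested. The other 7 members kept their sign under all 15 alternatives. With Dcn left out of the total, the differences of shares (percentage points, circulating minus muscle) grew by construction, to -4.59 for Bgn, 2.82 for Aspn, 7.99 for Fmod, -10.3 for Lum, -1.92 for Prelp, -0.0643 for Omd, 7.92 for Ogn and -1.69 for Podn. With the longest coding transcript 10 members again lay above background in all libraries.

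Groups share replicate numbers, but same-numbered samples did not deviate together (correlations 0.01, 0.04 and 0.01 across genes). With 3 noisy libraries per group such values cannot tell whether the numbers pair the samples, and the labels do not say. With a replicate block 1 gene passed, none of the members, and circulating replicate 1 correlated best with muscle replicate 3. Depth limits Omd most, with 24 to 35 reads in circulating libraries.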
